A study of Homo sapiens with 8 samples.

Results

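The early response of hepatic stellate cells to a stiff matrix was described across 14290 expressed genes from the 4 RNA-seq libraries taken after 2 days of culture, out of 8 in the series. All came from LX-2, an immortalized human hepatic stellate cell line labelled as wild type, which is a single line and no primary liver cell. Cells were moved from tissue culture plastic to polyacrylamide hydrogels coated with fibronectin and kept in serum-containing medium. In 2 libraries the hydrogel was soft, near 2 kPa as in normal liver, and in 2 it was stiff, near 40 kPa as in cirrhotic liver. The other 4 libraries, from cells kept on the same matrices for 4 days, are used only where stated. Of the gene lists described, those of NF-kB targets, cytokines and chemokines and of the interferon response had the lowest median log2 fold changes at 2 days. Many of their genes were lower on the stiff matrix, as were MMP9, MMP2 and several collagens. The hyaluronan synthase gene HAS2 rose, with smaller rises in some cytoskeletal genes and some targets of YAP and TAZ. The calls come from the fit of these 4 libraries. With all 8 libraries in a single edgeR fit, 0 genes were called.

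Hepatic stellate cells are the pericytes of the liver sinusoid. After injury they turn into contractile myofibroblasts that deposit collagen, and a stiff substrate favours that state. Cells sense stiffness through integrins and focal adhesions that pull on the actin cytoskeleton, and the coactivators YAP and TAZ then bind TEAD factors in the nucleus. Stellate cells are also a source of cytokines and chemokines, whose genes are driven by the NF-kB family, and they answer to interferon through STAT and IRF factors.

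Promoter sequences of 6 genes are shown because they belong to the groups that changed and hold the letters of a motif of these factors. They were chosen after their changes and motifs were seen. The sequences are RefSeq's, on build GRCh38.p14, and run 5′ to 3′ on the strand of the gene up to the base before its start. Capitals mark each match of the motif on either strand. The promoters of CXCL1 (chr4:73869243-73869392, plus strand) and CXCL2 (chr4:74099196-74099345, minus strand), both lower on the stiff matrix, each held 1 match of the NF-kB motif, GGG and TTTCC spaced by 2 bases of any kind.
CXCL1: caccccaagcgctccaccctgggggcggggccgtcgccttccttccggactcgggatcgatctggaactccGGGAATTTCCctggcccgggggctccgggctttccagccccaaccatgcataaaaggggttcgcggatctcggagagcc
CXCL2: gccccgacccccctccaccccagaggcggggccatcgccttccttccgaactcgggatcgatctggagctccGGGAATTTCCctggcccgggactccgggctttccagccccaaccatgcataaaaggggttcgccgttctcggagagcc
The promoters of ISG15 (chr1:1013347-1013496, plus strand) and IFIT1 (chr10:89392473-89392622, plus strand), also lower, each held 2 matches of the interferon response motif, a pair of TTTC spaced by 2 bases of any kind, which in ISG15 lie on the opposite strand and overlap.
ISG15: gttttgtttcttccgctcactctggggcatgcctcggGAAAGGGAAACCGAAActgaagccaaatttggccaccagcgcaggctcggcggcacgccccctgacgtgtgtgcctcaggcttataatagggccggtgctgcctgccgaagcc
IFIT1: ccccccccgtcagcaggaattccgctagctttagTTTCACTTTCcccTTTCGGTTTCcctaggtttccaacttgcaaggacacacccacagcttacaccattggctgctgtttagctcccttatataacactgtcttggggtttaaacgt
The promoters of CTGF (chr6:131951373-131951572, minus strand) and ANKRD1 (chr10:90921088-90921337, minus strand), both higher, held 3 and 2 matches of the TEAD letters GGAATG.
CTGF: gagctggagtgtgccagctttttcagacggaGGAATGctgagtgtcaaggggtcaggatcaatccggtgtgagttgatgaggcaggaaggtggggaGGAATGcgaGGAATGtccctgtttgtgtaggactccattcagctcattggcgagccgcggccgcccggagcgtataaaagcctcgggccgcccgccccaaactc
ANKRD1: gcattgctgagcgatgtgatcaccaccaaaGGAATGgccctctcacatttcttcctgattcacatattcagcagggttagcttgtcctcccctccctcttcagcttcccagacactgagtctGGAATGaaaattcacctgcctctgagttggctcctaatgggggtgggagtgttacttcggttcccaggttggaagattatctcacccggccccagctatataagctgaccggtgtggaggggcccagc

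The libraries held 23257314 to 27263935 counts at 2 days. Replicates of a matrix were closer to each other at 2 days than at 4 days: beyond counting error they differed by a coefficient of variation of 7.55% on the soft and 4.28% on the stiff matrix, against 12.3% and 31.2% at 4 days. The 2 stiff libraries were not alike in every respect. Stiff replicate 2 held many more counts of a few short non-coding RNA genes than the other 3 libraries. RMRP, an RNA of a mitochondrial and nucleolar nuclease, had 37 and 17 counts on the soft matrix and 12 and 243 counts on the stiff matrix. Stiff replicate 1 in turn lay farther from the soft libraries in 302 of the 353 genes called lower (85.6%) and in 275 of the 307 called higher without overlap (89.6%). These shares were taken only among called genes, which the same values picked, and not over all genes. The marker check matched the label in part. COL1A1 (868.9 to 1059.5 CPM) and VIM (2050.2 to 2860.2 CPM) were abundant, while LRAT and ALDH1A1, genes of the retinoid-storing quiescent cell, had 0 counts in all 4 libraries. Among markers of other liver cells, TTR, HNF4A, APOA2 and FGB of hepatocytes and CD163 and CD3E of leukocytes were at 0 throughout. The summed level of the 8 macrophage and leukocyte markers was 93.6 to 98.9 CPM on the soft and 110 to 112 CPM on the stiff matrix, most of it CD68. The 10 hepatocyte markers summed to 7.49 and 7.58 CPM on the soft and 4.58 and 5.56 CPM on the stiff matrix. Only SERPINA1 of these passed the expression filter (log2 fold change -0.57), and the others had at most 2 counts in any library. The cholangiocyte markers summed to 38.4 and 33.6 CPM on the soft and 34.3 and 36.9 CPM on the stiff matrix. The endothelial markers summed to 2.92 and 2.29 CPM on the soft and 2.34 and 2.91 CPM on the stiff matrix. In bulk RNA, fewer cells of a type and less RNA per cell cannot be told apart.

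In the comparison of these 4 libraries, 667 of 14290 genes tested (4.67%) were called by the quasi-likelihood test of edgeR at an adjusted p under 0.05. Of these, 314 (2.2% of those tested) had higher and 353 (2.47%) lower expression on the stiff than on the soft matrix. Most changes were small. The median log2 fold change was 0.37 for the genes called higher and -0.49 for those called lower, and 13 and 47 genes reached a 2-fold change. Without scaling factors beyond the library totals, 174 genes were called higher and 554 lower, with a median of -0.06 over all genes. In all but 7 of the 667 called genes the libraries of the matrices did not overlap, as was also the case for 48.4% of all genes tested. The 7 called genes with overlapping libraries were RMRP, RPPH1, MIR663A, MIR3648, MIR3687, LOC284801 and MALAT1, all called higher and all highest in stiff replicate 2. They were named after their values were seen, and they stand in no list described here.

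**Figure D1:**
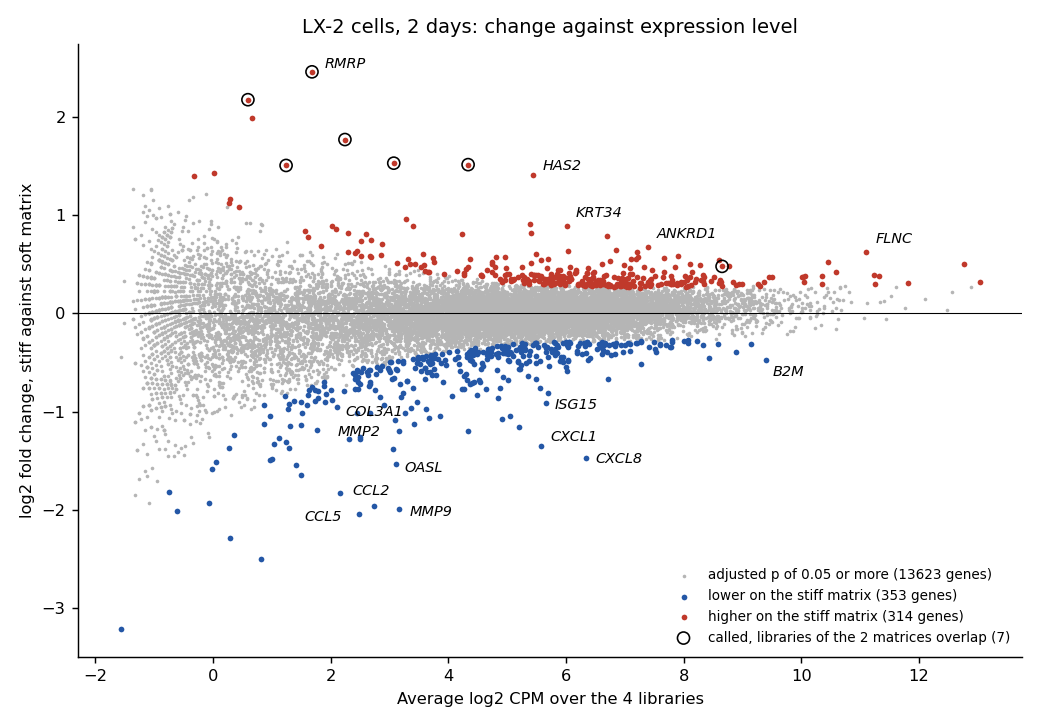
Each point is a gene, with its average log2 CPM over the 4 libraries on the x axis and its log2 fold change, stiff against soft matrix, on the y axis; red and blue mark genes called higher (314) and lower (353), and rings mark the 7 called genes whose libraries overlap. CXCL8 and CXCL1 fell at moderate expression levels, and HAS2 stands highest among genes above 5 on the x axis.

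The number of calls depended on which libraries gave the estimate of the spread. With the libraries of both days in a single edgeR fit, 0 of 14570 genes passed and the smallest adjusted p was 0.334, with 411 genes at an unadjusted p under 0.05. DESeq2 on all 8 libraries called 6 genes higher and 22 lower. The common dispersion was 0.0281 in the 8-library edgeR fit and 0.00384 in the fit of the 2-day libraries, and the calls of both fits were known when the latter was taken as the main comparison. DESeq2 on the 2-day libraries called 222 genes higher and 155 lower, and shared 352 of the 667 calls (52.8%). A voom fit of all 8 libraries that let each condition have its own spread called 63 higher and 124 lower, and shared 185 (27.7%). All 667 genes had the same sign in the 8-library fit, which holds the same 2-day libraries. Counts of a list with a library left out, given below, are to be read beside the calls over all genes in the same fit. Leaving out stiff replicate 1 lowered the calls most, to 21 higher and 43 lower, and leaving out soft replicate 2 raised them to 1033 and 1167.

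**Figure D2:**
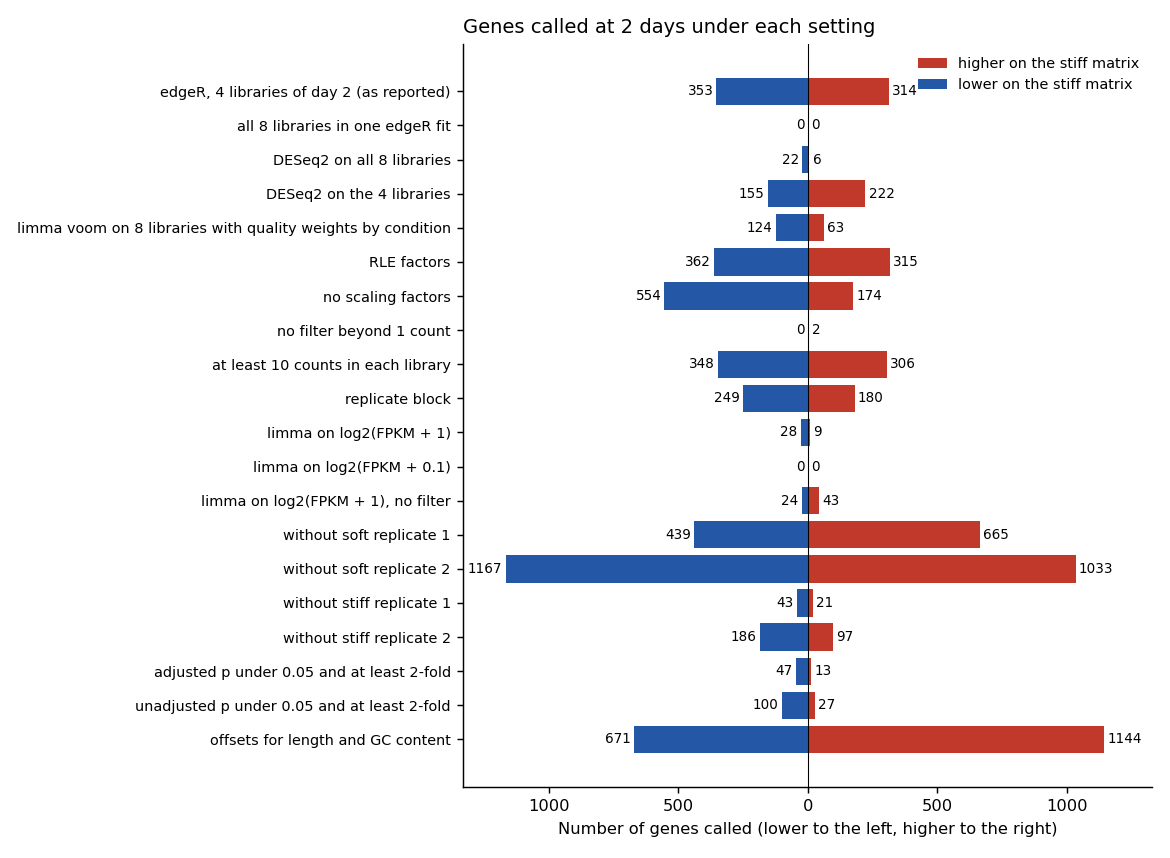
Bars give the number of genes called lower (to the left, blue) and higher (to the right, red) on the stiff matrix at 2 days under each setting, with the fit of the 4 libraries on top. The counts run from 0 with all 8 libraries in a single edgeR fit to 1033 higher and 1167 lower without soft replicate 2.

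NF-kB targets, cytokines and chemokines made up the list with the lowest median. Of 40 tested members of 51 listed, 26 were called lower, against 2.47% of all genes, and 0 higher on the stiff matrix, with a median log2 fold change of -0.70 against -0.001 over all genes. In 31 of the 40, both stiff libraries lay below both soft libraries, against 24% of all genes. DESeq2 on the 4 libraries called 17 members lower, the voom fit 20 and the 8-library edgeR fit 0, where 23 of the 40 had an unadjusted p under 0.05. Without stiff replicate 1, 10 members were called lower, and without any other library 23 to 25.

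Among the chemokines, 7 of 9 tested fell. CXCL8, which draws neutrophils and lies at chr4:74606236-74609433 on GRCh37, measured 109 and 127 CPM on the soft matrix and 33.8 and 51.6 CPM on the stiff matrix (log2 fold change -1.47, SE 0.11, adjusted p = 1.75e-13). CXCL1, a related neutrophil chemokine, measured 66.1 and 70.4 CPM on the soft matrix and 21.3 and 32.1 CPM on the stiff matrix (log2 fold change -1.35, SE 0.11, adjusted p = 2.08e-12). Both stiff libraries were well below both soft libraries, with stiff replicate 1 the lowest. CCL2, which recruits monocytes and lies at chr17:32582293-32584227, measured 9.03 and 11.4 CPM on the soft matrix and 1.51 and 3.74 CPM on the stiff matrix (log2 fold change -1.96, SE 0.21, adjusted p = 3.80e-09). CCL5, a T cell and monocyte chemokine at chr17:34198495-34207797, had the largest fall by log2 fold change of all named genes above 1 in average log2 CPM, from 7.89 and 9.27 CPM on the soft to 1.34 and 2.82 CPM on the stiff matrix (log2 fold change -2.04, SE 0.21, adjusted p = 1.91e-09). For both, stiff replicate 2 was well above stiff replicate 1 and still below both soft libraries. CXCL2, CXCL3 and CXCL5 fell by 1.02, 0.78 and 0.67 on the log2 scale. CXCL6 had a log2 fold change of -0.98 and CXCL12 one of 0.11, and neither passed the test. Here and in the lists that follow, many of the members that did not pass are named for their role and were chosen after their values were seen.

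Of the cytokines and their receptors, 8 of 13 tested fell. IL1B, the secreted inflammatory interleukin 1 beta, measured 44.04 and 56.4 CPM on the soft matrix and 20.3 and 24.6 CPM on the stiff matrix (log2 fold change -1.16, SE 0.11, adjusted p = 1.02e-10). IL32, another inflammatory cytokine, measured 76.9 and 77.5 CPM on the soft matrix and 52.5 and 50.6 CPM on the stiff matrix (log2 fold change -0.58, SE 0.087, adjusted p = 9.14e-06). The groups did not overlap in either gene. The growth factors of myeloid cells fell too. CSF2 measured 10.7 and 12.7 CPM on the soft matrix and 3.68 and 5.26 CPM on the stiff matrix (log2 fold change -1.39, SE 0.16, adjusted p = 4.58e-08), and CSF1 had a log2 fold change of -0.40 (adjusted p = 0.023). IL6, the inducer of the acute phase response, was low, with 2.92 and 2.55 CPM on the soft matrix and 0.952 and 1.22 CPM on the stiff matrix (log2 fold change -1.33, SE 0.28, adjusted p = 0.00196), and STEAP1B lies on the opposite strand of it, so that without a stated strand setting its reads cannot be assigned with certainty. CSF3, IL1A and LIF also passed the test, with log2 fold changes of -2.29, -1.51 and -0.69. IL11, a fibrogenic cytokine, had a log2 fold change of 0.28 and did not pass.

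The NF-kB subunits and their feedback genes split. RELA and NFKB1, the subunits of the canonical dimer, had log2 fold changes of 0.07 and -0.15 and did not pass. RELB and NFKB2, the subunits of the alternative pathway, did: RELB measured 27.01 and 24.9 CPM on the soft matrix and 12.8 and 18.9 CPM on the stiff matrix (log2 fold change -0.71, SE 0.12, adjusted p = 0.000109) and NFKB2 measured 96.3 and 95.5 CPM on the soft matrix and 59.5 and 78.4 CPM on the stiff matrix (log2 fold change -0.48, SE 0.094, adjusted p = 0.000844). Stiff replicate 2 lay between the others in both genes. NFKBIA, the inhibitor that NF-kB itself induces, measured 77.1 and 74.7 CPM on the soft matrix and 45.9 and 57.8 CPM on the stiff matrix (log2 fold change -0.55, SE 0.093, adjusted p = 8.53e-05). BIRC3, an inhibitor of apoptosis, measured 36.8 and 44.01 CPM on the soft matrix and 16 and 22.3 CPM on the stiff matrix (log2 fold change -1.08, SE 0.11, adjusted p = 3.80e-09), while the feedback deubiquitinase TNFAIP3 had a log2 fold change of 0.25 and did not pass. Of the adhesion molecules, ICAM1 measured 28.2 and 27.3 CPM on the soft matrix and 8.997 and 15.2 CPM on the stiff matrix (log2 fold change -1.19, SE 0.13, adjusted p = 1.44e-08) and VCAM1 2.85 and 2.55 CPM on the soft matrix and 0.606 and 1.303 CPM on the stiff matrix (log2 fold change -1.50, SE 0.30, adjusted p = 0.00108). C3, the central complement component, had the lowest log2 fold change of the list, with 2.997 and 2.44 CPM on the soft matrix and 0.433 and 0.521 CPM on the stiff matrix (log2 fold change -2.50, SE 0.33, adjusted p = 1.01e-06). CD14, a coreceptor for bacterial lipopolysaccharide that also marks macrophages, measured 7.49 and 5.52 CPM on the soft matrix and 3.07 and 4.56 CPM on the stiff matrix (log2 fold change -0.77, adjusted p = 0.0103), while the macrophage marker CD68 did not pass, at 90.7 and 87.4 CPM on the soft matrix and 108 and 105 CPM on the stiff matrix. A part of other cells in these changes was not tested.

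The interferon response list behaved alike. Of 50 tested members of 54 listed, 31 were called lower, against 2.47% of all genes, and 0 higher. The median log2 fold change was -0.60. In 40 of the 50, both stiff libraries lay below both soft ones, and in 0 did they lie above, against 24% and 24.4% of all genes. DESeq2 on the 4 libraries called 17 lower, the voom fit 18, and the 8-library edgeR fit 0, where 24 of the 50 had an unadjusted p under 0.05. Without stiff replicate 1, 9 were called lower, and without any other library 23 to 33. The sensors of viral RNA IFIH1, DDX58 and DHX58 fell by 0.97, 0.81 and 0.72 on the log2 scale, and the cyclic dinucleotide receptor TMEM173 (STING) fell by 0.43. Of the transcription factors, IRF1 measured 39.9 and 39.02 CPM on the soft matrix and 22.1 and 27.4 CPM on the stiff matrix (log2 fold change -0.68, SE 0.10, adjusted p = 9.94e-06) and IRF9 27.7 and 28.5 CPM on the soft matrix and 15.3 and 19.9 CPM on the stiff matrix (log2 fold change -0.67, SE 0.11, adjusted p = 6.87e-05). STAT2 did not pass, with a log2 fold change of -0.12. The effectors carried most calls, 24 of 37 tested. OASL, a protein like the oligoadenylate synthetases, measured 12.1 and 12.7 CPM on the soft matrix and 3.37 and 5.17 CPM on the stiff matrix (log2 fold change -1.54, SE 0.16, adjusted p = 3.37e-09). ISG15, a ubiquitin-like modifier, measured 69.9 and 61.3 CPM on the soft matrix and 34.2 and 35.4 CPM on the stiff matrix (log2 fold change -0.91, SE 0.093, adjusted p = 1.35e-09). The ISG15 libraries of each matrix were close and the matrices far apart. IFIT3, which binds foreign RNA with its relatives, measured 36.1 and 36.8 CPM on the soft matrix and 20.6 and 22.5 CPM on the stiff matrix (log2 fold change -0.76, SE 0.10, adjusted p = 8.87e-07), with LIPA on the opposite strand. IFIT1, whose promoter is printed above, measured 20.98 and 25.6 CPM on the soft matrix and 14.1 and 15.9 CPM on the stiff matrix (log2 fold change -0.64, SE 0.12, adjusted p = 0.000298). The list was not uniform: MX1 at -0.63, GBP1 at -0.16 and IFITM3 at -0.08 on the log2 scale did not pass.

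Expression of genes for antigen presentation through MHC class I, which interferon and NF-kB both drive, was lower as well. Of 18 members, 10 were called lower, against 2.47% of all genes, and 0 higher, with a median log2 fold change of -0.36. Both stiff libraries lay below both soft ones in 17, against 24% of all genes. DESeq2 called 8, the voom fit 3 and the 8-library edgeR fit 0. The count was 0 without stiff replicate 1 and 7 without stiff replicate 2. B2M, the light chain of all class I molecules, measured 725 and 797 FPKM on the soft matrix and 547 and 556 FPKM on the stiff matrix, the largest fall in FPKM among all called genes (log2 fold change -0.47, SE 0.084, adjusted p = 0.00015). The immunoproteasome subunit PSMB9 measured 29.3 and 27.8 CPM on the soft matrix and 16.1 and 19.1 CPM on the stiff matrix (log2 fold change -0.70, SE 0.11, adjusted p = 1.88e-05), with PSMB8 on the opposite strand. HLA-B measured 570.1 and 510.4 CPM on the soft matrix and 389.8 and 433 CPM on the stiff matrix (log2 fold change -0.39, adjusted p = 0.00261). HLA-C and HLA-F also passed, and since these genes resemble each other, reads may have been split or lost between them. The peptide transporter genes TAP1 and TAP2 had log2 fold changes of -0.26 and -0.09 and did not pass.

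**Figure D3:**
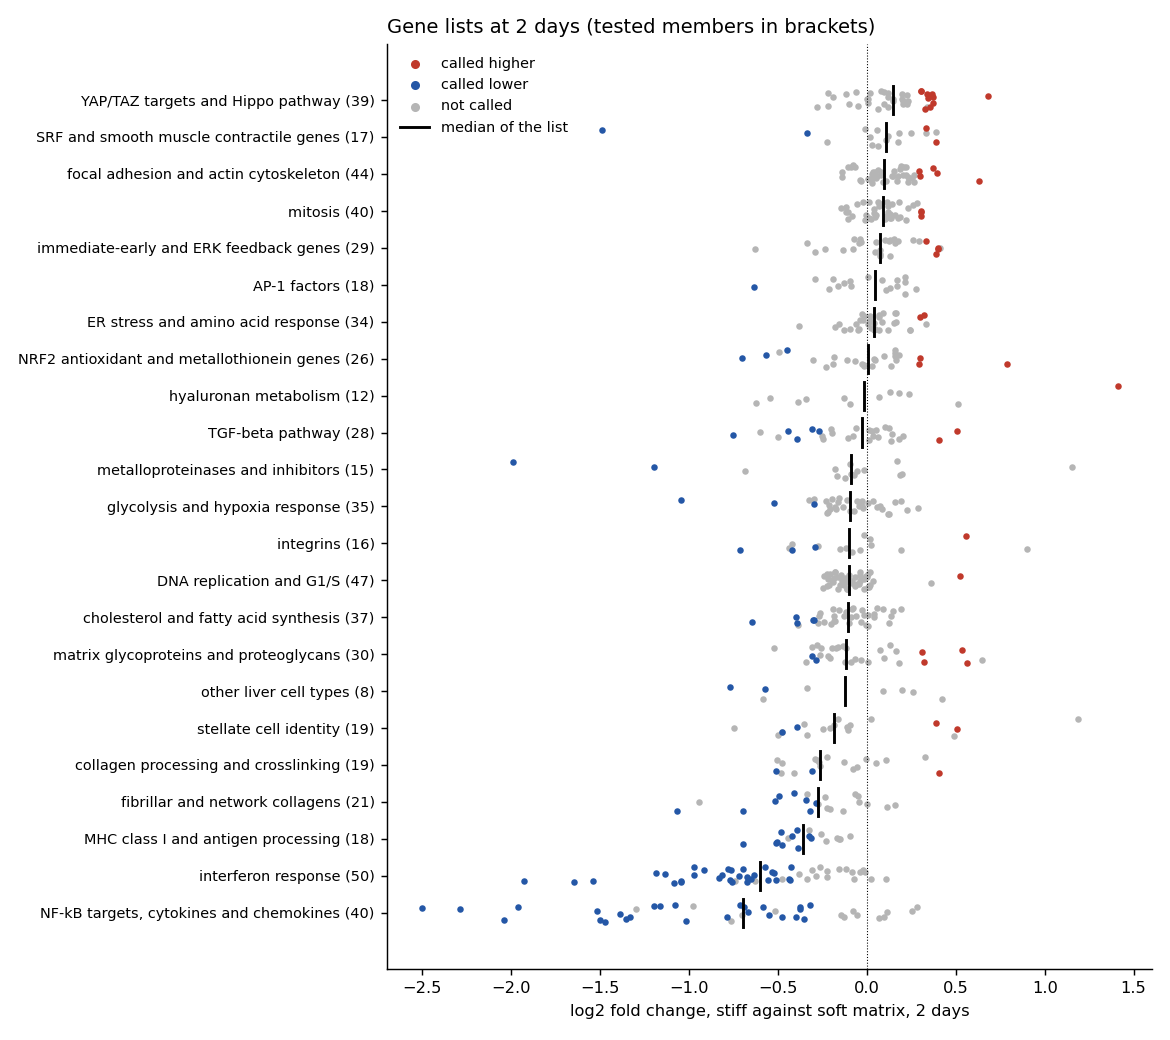
Each row is a gene list with the number of tested members in brackets, and each point is a member at its log2 fold change (stiff against soft, x axis), red or blue where called higher or lower and grey where not; black bars mark medians. The NF-kB and interferon lists, with medians of -0.70 and -0.60, sit far to the left, while the YAP/TAZ list (0.14) and the focal adhesion list (0.10) sit slightly to the right.

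Genes of the extracellular matrix changed in both directions. Of 21 tested collagen genes, 8 were called lower, against 2.47% of all genes, and 0 higher, with a median log2 fold change of -0.27. DESeq2 called 3, the voom fit 3 and the 8-library edgeR fit 0, and the count was 1 without stiff replicate 1, 4 without stiff replicate 2 and 5 without soft replicate 1. COL3A1, the chain of the fibrillar collagen III of scars, measured 17.6 and 16.1 CPM on the soft matrix and 5.45 and 10.6 CPM on the stiff matrix (log2 fold change -1.07, SE 0.16, adjusted p = 8.70e-06). Its stiff libraries differed by nearly as much as replicate 2 differed from the soft ones. COL5A2, which nucleates collagen fibrils, measured 184 and 181 CPM on the soft matrix and 121 and 134 CPM on the stiff matrix (log2 fold change -0.52, SE 0.083, adjusted p = 3.32e-05). COL7A1, the chain of anchoring fibrils, had a log2 fold change of -0.70 (adjusted p = 0.000127), and COL16A1, COL4A5, COL6A1, COL6A2 and COL18A1 lay between -0.50 and -0.29. COL1A1, the main chain of scar collagen, measured 1059.5 and 922 CPM on the soft matrix and 869 and 937 CPM on the stiff matrix and did not pass (log2 fold change -0.13, adjusted p = 0.438). Its libraries overlapped, as did those of FN1 (fibronectin) at 1164 and 1130.2 CPM on the soft matrix and 1205 and 1036 CPM on the stiff matrix (log2 fold change -0.03, adjusted p = 0.893). Of the enzymes that process collagen, the crosslinking oxidase LOX rose, with 109 and 107 CPM on the soft matrix and 154 and 133 CPM on the stiff matrix (log2 fold change 0.41, SE 0.085, adjusted p = 0.00162, with SRFBP1 on the opposite strand), while the propeptide enhancer PCOLCE and the propeptidase BMP1 fell by 0.51 and 0.31 on the log2 scale. Of the 19 tested genes of collagen processing, 0 were called without stiff replicate 1, and without soft replicate 2, 1 was higher and 6 were lower.

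The list of matrix metalloproteinases and their inhibitors had 15 tested members. Of 11 metalloproteinases, 2 were called, both lower (18.2%, against 2.47% of all genes), and of 4 inhibitors 0 were called. MMP9, the gelatinase at chr20:44637547-44645200, measured 13.6 and 13.96 CPM on the soft matrix and 2.29 and 4.65 CPM on the stiff matrix (log2 fold change -1.99, SE 0.18, adjusted p = 4.03e-11). MMP2, the other gelatinase, measured 13.6 and 10.7 CPM on the soft matrix and 4.37 and 6.21 CPM on the stiff matrix (log2 fold change -1.20, SE 0.16, adjusted p = 8.87e-07). Both genes stayed called lower whichever library was left out, and in each the stiff libraries lay far below the soft ones. MMP1 and MMP14, which cleave intact fibrillar collagen, had log2 fold changes of 0.19 and -0.09 and did not pass, nor did the inhibitors TIMP1, TIMP2 and TIMP3 (-0.09, -0.07 and -0.17). Without soft replicate 2 the list had 2 called higher and 3 lower.

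HAS2, which makes hyaluronan at the plasma membrane, had the smallest adjusted p of all genes. It measured 22.9 and 25.1 CPM on the soft matrix and 70.03 and 57.4 CPM on the stiff matrix (log2 fold change 1.41, SE 0.099, adjusted p = 3.72e-14). Both stiff libraries were more than 2-fold above both soft libraries, and the call held whichever library was left out. HAS2-AS1 lies on the opposite strand. HAS2 was the only called gene of the 12 tested for hyaluronan metabolism: the synthase HAS3, the receptor CD44 and the hyaluronidase HYAL2 had log2 fold changes of -0.10, 0.24 and -0.13. Of the proteoglycans and glycoproteins, 4 of 30 rose and 2 fell, against 2.2% and 2.47% of all genes. VCAN, the hyaluronan-binding proteoglycan versican, measured 10.6 and 10.9 CPM on the soft matrix and 17.8 and 14.1 CPM on the stiff matrix (log2 fold change 0.57, SE 0.13, adjusted p = 0.00428), and THBS1, which activates latent TGF-beta, measured 86.1 and 88.6 CPM on the soft matrix and 140.5 and 113 CPM on the stiff matrix (log2 fold change 0.53, SE 0.089, adjusted p = 6.65e-05). FBN2 and SDC1 had log2 fold changes of 0.32 and 0.31, and THBS2 and LAMB1 fell by 0.28 and 0.31. The median of the proteoglycans and glycoproteins was -0.12, and -0.24 without soft replicate 2, where calls rose over all genes too. When either stiff library was left out no fall was called, and without stiff replicate 1 no rise either. Hyaluronan genes called higher numbered 2 without soft replicate 1 and 3, with 2 lower, without soft replicate 2.

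Among the integrins, which tie the matrix to the cytoskeleton, 1 of 16 tested rose and 3 fell, against 2.2% and 2.47% of all genes. ITGA6, the laminin-binding alpha 6 chain, measured 111 and 112 CPM on the soft matrix and 173 and 155 CPM on the stiff matrix (log2 fold change 0.56, SE 0.083, adjusted p = 9.14e-06). The collagen-binding chains ITGA1 and ITGA2 and the RGD-binding chain ITGAV fell by 0.71, 0.42 and 0.29 on the log2 scale. ITGA1 measured 7.64 and 7.73 CPM on the soft matrix and 4.71 and 4.65 CPM on the stiff matrix, so that the pairs were tight on both matrices. No beta subunit passed, and ITGB2, the leukocyte beta chain, measured 1.21 and 1.201 CPM on the soft matrix and 2.77 and 1.74 CPM on the stiff matrix (log2 fold change 0.90, adjusted p = 0.0613). ITGB2-AS1 lies on its opposite strand. Of the integrin genes, 0 were called in either direction without stiff replicate 1, without stiff replicate 2, 2 were higher and 0 lower, and without soft replicate 2, 1 was higher and 5 were lower.

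**Figure D4:**
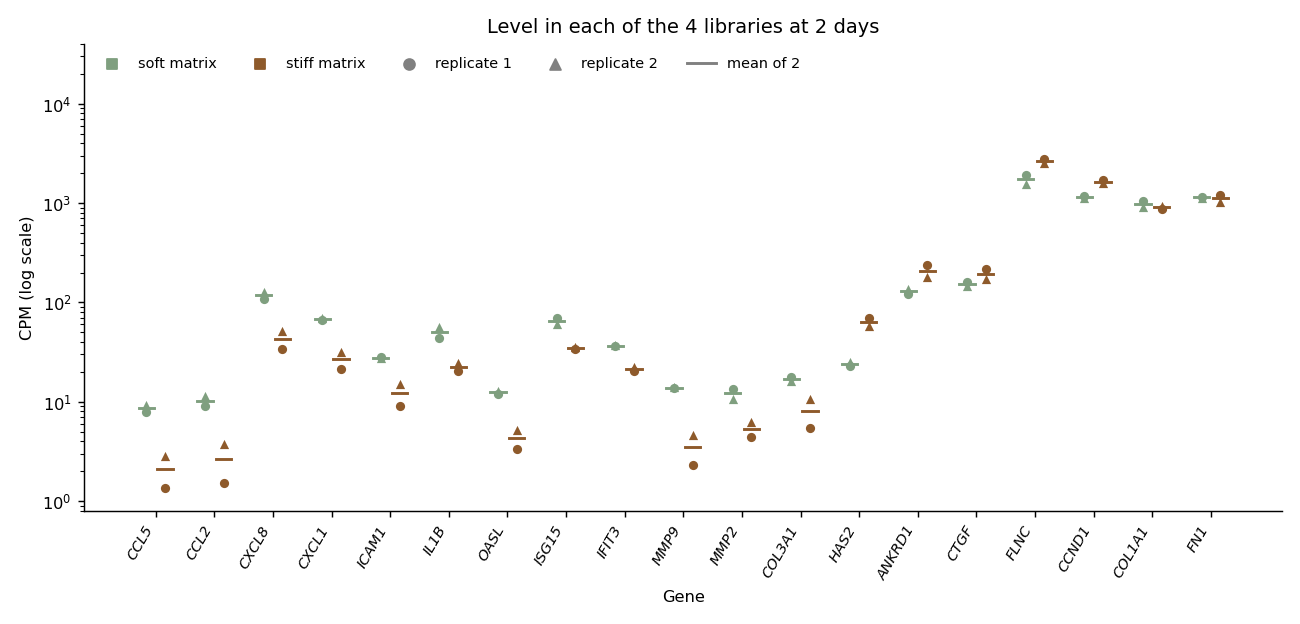
Points give the level of 19 genes in CPM (log scale) in each of the 4 libraries, green for the soft and brown for the stiff matrix, circles for replicate 1 and triangles for replicate 2, with lines at the mean of 2. The inflammatory genes on the left, MMP9, MMP2 and COL3A1 lie lower on the stiff matrix, HAS2 to CCND1 lie higher, and COL1A1 and FN1 overlap.

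The list of YAP and TAZ targets and Hippo pathway members had 10 of 39 genes called higher, against 2.2% of all genes, and 0 lower. Of its 25 targets, 8 were called higher, with a median log2 fold change of 0.20, and of the 14 pathway members 2 were, with a median of 0.04. Over the whole list the median was 0.14, or 0.09 without scaling factors, and 24 had their stiff libraries above both soft libraries, against 24.4% of all genes. DESeq2 called 9, the voom fit 2 and the 8-library edgeR fit 0. The count was 0 without stiff replicate 1 and 3 without stiff replicate 2, so that most of these calls needed both stiff libraries. ANKRD1, a titin-binding protein of stretched muscle, had the largest change, with 122 and 137 CPM on the soft matrix and 235 and 179 CPM on the stiff matrix (log2 fold change 0.68, SE 0.093, adjusted p = 1.84e-06). CTGF (CCN2), a fibrogenic matricellular protein, measured 159 and 146 CPM on the soft matrix and 215 and 171 CPM on the stiff matrix (log2 fold change 0.34, SE 0.089, adjusted p = 0.0153), with LINC01013 on the opposite strand. In both genes stiff replicate 1 was the highest and replicate 2 lay closer to the soft libraries. AXL, a receptor tyrosine kinase, measured 936 and 896 CPM on the soft matrix and 1222 and 1144 CPM on the stiff matrix (log2 fold change 0.37, SE 0.084, adjusted p = 0.0043), and F3, the tissue factor of coagulation, 127 and 131 CPM on the soft matrix and 184 and 149 CPM on the stiff matrix (log2 fold change 0.37, adjusted p = 0.00651). CRIM1, PTPN14, AMOTL2 and GADD45A had log2 fold changes of 0.37, 0.36, 0.31 and 0.31. CYR61 (CCN1) and LATS2 had values of 0.14 and 0.23 and did not pass. Of the pathway itself, NF2 and MOB1B, which act in the kinase cascade that restrains YAP, rose (0.33 and 0.34), while YAP1 and WWTR1 (TAZ) had log2 fold changes of 0.08 and -0.22 and did not pass.

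Of 44 focal adhesion and actin genes, 5 were called higher, 0 lower and 39 not at all. The median was 0.10 on the log2 scale, or 0.04 without scaling factors, and 25 had both stiff libraries above both soft ones. FLNC, a filamin that crosslinks actin, measured 1908 and 1549.6 CPM on the soft matrix and 2793 and 2561 CPM on the stiff matrix (log2 fold change 0.63, SE 0.092, adjusted p = 5.80e-06), and its call held whichever library was left out. ACTN1 (alpha-actinin) measured 1249.8 and 1082 CPM on the soft matrix and 1480.2 and 1388 CPM on the stiff matrix (log2 fold change 0.30, adjusted p = 0.0327). MYH9 (nonmuscle myosin) measured 2357 and 2018 CPM on the soft matrix and 2764 and 2607 CPM on the stiff matrix (log2 fold change 0.30, adjusted p = 0.0395). TLN2 and LPP, components of adhesion plaques, had log2 fold changes of 0.40 and 0.37. The count was 1 without either of the stiff libraries, 15 without soft replicate 1 and 7 without soft replicate 2. Contractile genes under SRF split, with CALD1 (0.39) and SMTN (0.33) higher and MYLK (-0.34) lower. MYOCD, the muscle coactivator of SRF, fell from 2.45 and 3.04 to 0.822 and 1.13 CPM (log2 fold change -1.49, SE 0.29, adjusted p = 0.000724). ACTA2, the alpha-smooth muscle actin of myofibroblasts, measured 9.904 and 9.53 CPM on the soft matrix and 8.26 and 8.38 CPM on the stiff matrix and did not pass (log2 fold change -0.22, adjusted p = 0.422). Of the 17 SRF genes, 6 were called higher without soft replicate 1, and 0 were called without stiff replicate 1. Without stiff replicate 2, 1 was higher and 1 lower.

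In the TGF-beta pathway, the main fibrogenic pathway of stellate cells, 2 of 28 members rose and 5 fell, against 2.2% and 2.47% of all genes. The median of the pathway was -0.02 on the log2 scale. SMAD7, the inhibitory SMAD, measured 47.7 and 44.6 CPM on the soft matrix and 63.3 and 59.02 CPM on the stiff matrix (log2 fold change 0.41, SE 0.09, adjusted p = 0.00315). PMEPA1, another feedback inhibitor, fell from 3.801 and 3.94 to 2.34 and 2.26 CPM (log2 fold change -0.75, SE 0.22, adjusted p = 0.0345), and its call was lost whichever library was left out. ID2, ID3, SMAD3 and the latent TGF-beta binding protein LTBP3 had log2 fold changes of -0.39, -0.31, -0.27 and -0.44. The ligand TGFB1 and the receptors TGFBR1 and TGFBR2 did not pass, with log2 fold changes of 0.01, 0.12 and -0.06. Without stiff replicate 1, 0 members of the pathway were called, and without stiff replicate 2, 1 was higher and 1 lower. Without soft replicate 2, 4 were higher and 7 lower.

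AP-1, the family of JUN and FOS dimers, binds the promoters of many genes that growth factors and stress induce. Of 18 tested, JUNB was lower and 0 were higher, so that 5.56% were called, near the 4.67% of all genes tested. The median log2 fold change of the family was 0.05, or -0.01 without scaling factors. Without soft replicate 1, 3 were called higher, and JUNB was no longer called without stiff replicate 1. JUNB measured 51.7 and 47.3 CPM on the soft matrix and 30.3 and 33.5 CPM on the stiff matrix (log2 fold change -0.63, SE 0.094, adjusted p = 8.75e-06), with HOOK2 on the opposite strand. JUN measured 491 and 439 CPM on the soft matrix and 562 and 517 CPM on the stiff matrix (log2 fold change 0.21, adjusted p = 0.147) and FOSL1 554 and 539 CPM on the soft matrix and 603 and 592 CPM on the stiff matrix (log2 fold change 0.13, adjusted p = 0.434). In both, the stiff libraries lay above the soft ones and the difference did not pass. The 4 FOS genes had log2 fold changes between 0.13 and 0.28, none of them called, and JUND had one of -0.19. ATF3 was flat at 5.23 and 5.59 CPM on the soft matrix and 5.58 and 4.56 CPM on the stiff matrix. Among immediate-early and ERK feedback genes, 4 of 29 rose and 0 fell, against 2.2% and 2.47% of all genes. The 4 were KLF6 (0.40), a zinc finger factor, SPRY4 (0.40) and SPRED1 (0.39), which damp the RAS pathway, and the phosphatase DUSP1 (0.33). Of the list, 0 were called without stiff replicate 1 and 2 without stiff replicate 2. Of the 22 tested genes that the study names for these cells, a list chosen on these samples and so no independent evidence, 6 were higher and 4 lower, or 2 and 3 without stiff replicate 1. Beside those above, CDH4, a cadherin, rose from 133 and 108 to 184 and 176 CPM (log2 fold change 0.58, SE 0.088, adjusted p = 1.06e-05), while COL8A1, ACTG2 and IGFBP3 had log2 fold changes of 0.11, 0.06 and 0.01 and did not pass.

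The cell cycle changed little. CCND1, the cyclin that growth factors and adhesion induce in G1, was the exception among 47 replication and G1/S genes, with 1169.7 and 1123 CPM on the soft matrix and 1703 and 1592 CPM on the stiff matrix (log2 fold change 0.52, SE 0.085, adjusted p = 3.66e-05). The other 46 were not called. Of the 47, 39 had a negative log2 fold change, against 7166 of all 14290 genes tested, and the median was -0.10. Without soft replicate 2 the median was also -0.10, while calls rose in this list and over all genes. Of 40 mitotic genes, MKI67, CENPF and ASPM rose (7.5%, against 2.2% of all genes), each with a log2 fold change of 0.30. The log2 fold change was positive in 30 of the 40, against 7124 of all 14290 genes tested. DESeq2 on the 4 libraries called 3 mitotic genes higher, and 0 were called when either stiff library was left out. The gene models of MKI67, CENPF and ASPM are 12495, 10296 and 10888 bases long, against a median of 3208 bases over all genes. With offsets fitted to length and GC content, added after the data were seen, 11 of the 40 mitotic genes were called higher. Their median was 0.085, against 0.09 without the offsets. Calls rose over all genes too, with 1144 of 13811 called higher with the offsets and 314 of 14290 without.

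Stress and metabolic genes gave short lists of calls, to be read against 4.67% called among all genes tested. HMOX1, the heme oxygenase induced by NRF2, measured 80.5 and 72.6 CPM on the soft matrix and 138 and 126 CPM on the stiff matrix (log2 fold change 0.79, SE 0.086, adjusted p = 6.62e-09) and stayed called whichever library was left out. GCLM and AKR1C1, 2 further NRF2 targets, rose by little (0.30 and 0.29), and the metallothioneins MT1F, MT1E and MT1X, copies of a family that share sequence, fell by 0.70, 0.57 and 0.45. ALDOC, an aldolase of glycolysis, measured 44.5 and 43.4 CPM on the soft matrix and 19.6 and 22.9 CPM on the stiff matrix (log2 fold change -1.05, SE 0.10, adjusted p = 2.99e-10), against 19 other glycolysis genes that were not called. DDIT4 and BNIP3, both induced by low oxygen, fell by 0.52 and 0.30. Of 37 genes of cholesterol and fatty acid synthesis, 5 fell. SREBF1, a regulator of lipid synthesis, and ACAT2, INSIG1 and FADS2 had log2 fold changes of -0.40, -0.39, -0.30 and -0.30. EDEM1 and SLC3A2 were the called members of 34 endoplasmic reticulum stress and amino acid response genes (0.30 and 0.32). They made up 5.88% of that list, near the share over all genes. Of 75 nuclear genes of the respiratory chain, 5 fell and 0 rose, with a median of -0.08 on the log2 scale. Their median was -0.14 without soft replicate 2, and no member stayed called when either stiff library was left out. Ribosomal protein genes, 76 in all, gave 0 calls by edgeR, 6 at an unadjusted p under 0.05 and 1 lower by DESeq2, with a median of 0.01, or -0.04 without scaling factors. Without soft replicate 1, 8 were higher and 1 lower, and without soft replicate 2, 4 were higher and 10 lower. Of the stellate markers, PDGFRB and THY1 fell by 0.48 and 0.39, and VIM and NGFR rose, with log2 fold changes of 0.39 and 0.50. Without stiff replicate 1, HMOX1 and ALDOC were all that were called in these lists. Without soft replicate 2 the calls rose over all genes as well as in these lists. The medians were then -0.17 in cholesterol and fatty acid synthesis, -0.13 in glycolysis and hypoxia and 0.004 in endoplasmic reticulum stress. They were -0.03 in the NRF2 list and -0.23 in the stellate list.

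Of the largest changes not yet given, most were of genes in no list. KRT34, a hair keratin, measured 45.6 and 45.2 CPM on the soft matrix and 84.7 and 84.1 CPM on the stiff matrix (log2 fold change 0.89, SE 0.087, adjusted p = 4.52e-10), with almost equal values within each matrix. KRTAP2-3 and KRTAP2-4, keratin-associated proteins with log2 fold changes of 0.91 and 0.89, are near-identical copies, so that reads may be divided between them. ADAMTS1, a protease of versican, measured 31.1 and 30.1 CPM on the soft matrix and 53.8 and 53.98 CPM on the stiff matrix (log2 fold change 0.82, SE 0.092, adjusted p = 1.44e-08), and EDN1, the vasoconstrictor endothelin 1, 12.6 and 14.9 CPM on the soft matrix and 27.3 and 20.8 CPM on the stiff matrix (log2 fold change 0.81, SE 0.12, adjusted p = 1.06e-05). The chaperone gene HSPA6, the bicarbonate transporter SLC4A4, the adhesion molecules PCDH17 and OPCML and the non-coding LINC01279 and LOC100190986 made up the rest of the largest rises, between 0.81 and 0.97 on the log2 scale. Of the largest falls, RARRES3, a retinoid-induced phospholipase, measured 7.199 and 6.04 CPM on the soft matrix and 1.21 and 2.52 CPM on the stiff matrix (log2 fold change -1.83, SE 0.23, adjusted p = 1.92e-07). LIPG, the endothelial lipase, measured 3.95 and 3.53 CPM on the soft matrix and 1.08 and 1.48 CPM on the stiff matrix (log2 fold change -1.54, SE 0.25, adjusted p = 5.29e-05), and GBP4, a guanylate-binding protein of the interferon list, 3.62 and 4.43 CPM on the soft matrix and 0.908 and 1.65 CPM on the stiff matrix (log2 fold change -1.65, SE 0.26, adjusted p = 2.32e-05). PAMR1, a secreted protease-like protein, had a log2 fold change of -1.37. On the FPKM scale the translation factor EEF1A1 and the chaperone HSPA8 were among the 3 largest rises, and COX5B, a subunit of the respiratory chain list, and ROMO1, a small protein of mitochondria, followed B2M among the falls, with log2 fold changes of 0.33, 0.31, -0.32 and -0.31.

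Changes at 2 days moved with transcript length and base composition. Length was that implied by the ratio of counts to FPKM, and GC content was read from the reference transcripts. Over 13811 genes with both measures, the log2 fold change had a Spearman correlation of 0.26 with length and -0.20 with GC content, as a description across genes of the same libraries. Genes called higher had a median length of 5800 bases and a median GC content of 45.7%, those called lower 2518 bases and 56.2%, and all genes 3208 bases and 49.0%. With offsets per library fitted to length and GC content, a setting added after the data were seen, 1144 genes were called higher and 671 lower, among them 647 of the 667. The NF-kB, interferon and MHC class I lists then had 27, 34 and 15 members called lower, with medians of -0.65, -0.58 and -0.33, and the YAP/TAZ list had 12 called higher and 1 lower, with a median of 0.12.

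**Figure D5:**
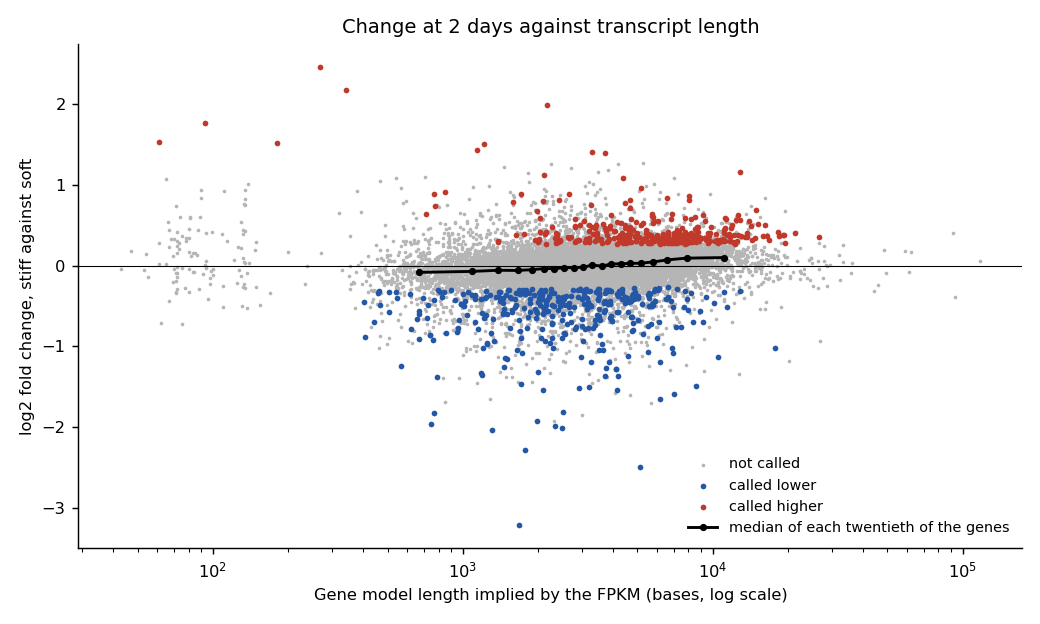
Each point is a gene with the length of its model in bases (log scale, x axis) and its log2 fold change at 2 days (y axis), red or blue where called; the black line joins medians over twentieths of the genes ordered by length. The line rises from below 0 among short to above 0 among long transcripts, and the genes called higher have a median length of 5800 bases against 2518 for those called lower.

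The motifs shown above were counted in RefSeq promoters of 300 bases, from 250 before to 50 after the start, which were at hand for 11004 genes tested, 247 called higher and 261 called lower. Both strands were searched, and a gene was counted if any of its promoters held the letters. Genes differ in their number of promoters, and a gene with more of them has more chances of a match. The shares are of genes and were not adjusted for that number. The NF-kB motif was found for 8.43% of the genes called lower, 2.43% of those called higher and 2.7% of all. The interferon response motif was found for 11.9% of the genes called lower, 3.64% of those called higher and 4.03% of all. The TEAD letters GGAATG were found for 25.1% of the genes called higher, 14.9% of those called lower and 15.0% of all. The AP-1 letters TGANTCA were found for 12.6%, 8.43% and 7.19% of the genes called higher, called lower and of all genes. In the same order, the antioxidant response letters TGACNNNGC were in 25.1%, 16.5% and 19.2%, the cell cycle homology letters TTTGAA in 19.4%, 11.9% and 13.5%, the CRE letters TGACGTCA in 2.83%, 2.3% and 3.74%, and the E2F letters TTTCCCGC in 2.43%, 2.3% and 3.17%. The antioxidant and CRE letters share the opening TGAC with many AP-1 sites. These shares are descriptions of letters, were not tested, and say nothing of binding.

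The 4-day libraries gave a further pair of values on each matrix. Of the 171 named genes called at 2 days, 106 (62%) had their 4-day libraries apart in the same direction. Among all genes whose libraries did not overlap at 2 days the share was 22.5%, and the named genes were chosen by their 2-day values. HAS2 had a log2 fold change of 1.38 at 4 days, CXCL8 of -1.95, CCL5 of -3.66, OASL of -3.34, MMP9 of -3.13, ANKRD1 of 0.95 and FLNC of 0.61, all from the 8-library fit. Others were near 0 there, with HMOX1 at -0.14, ITGA6 at -0.09, THBS1 at 0.08 and IL32 at -0.19. The medians at 4 days were -1.06 for the NF-kB list, -0.99 for the interferon list, -0.37 for MHC class I, 0.11 for the YAP/TAZ list and 0.02 for all genes. Whether an effect differed between the days was tested by the interaction in edgeR with all 8 libraries. It gave 0 calls among 14570 genes, with 284 at an unadjusted p under 0.05 and 3 calls by DESeq2. The test rested on the 4-day stiff libraries, since it gave 3139 calls without stiff replicate 1 of 4 days and 12 without stiff replicate 2 of 4 days.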

How the data were processed

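Gene expression was measured by RNA-seq in 8 libraries of LX-2 cells, of which the 4 taken at 2 days form the comparison (2 per matrix). The authors deposited whole-number counts per gene, which per the submitters' processing notes followed trimming with Trim Galore, alignment to hg19 with STAR 2.7.1a and counting with HTSeq. The gene annotation and the strand setting are not given in the sources used here. The authors also deposited FPKM values, scaled by size factors rather than by library totals. They were used to give levels per length and as an alternative.

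Counts were tested with edgeR 4.0.16 (R 4.3.3) by the quasi-likelihood test on the 4 libraries, after its expression filter and TMM scaling, with factors of 0.971 to 1.04 and a Benjamini-Hochberg adjusted p cutoff of 0.05. CPM are TMM-scaled and mean ± SD is not given, since each matrix had 2 libraries and both values are printed. The standard error of a log2 fold change is its size over the square root of F. Alternatives used DESeq2 1.42.0, limma 3.58.1 with voom, all 8 libraries, other scaling and filters, log2 of FPKM plus a pseudocount of 1 or 0.1, and each library left out in turn. Offsets for length and GC content, from splines with 5 degrees of freedom, were added after the data were seen. On simulated counts of the comparison at 2 days, edgeR recovered 178 of 200 genes changed by 1 on the log2 scale (89%). It tested 14157 genes and made 12 false calls. DESeq2 recovered 165 (82.5%) among 14290 genes, with 1 false call. The simulated spread was taken from the 4-library fit itself, and the planted change was larger than the median change of the called genes. The simulation therefore does not bear on how the calls differed between settings.

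The genes in the text were the 12 largest rises and falls by log2 fold change among called genes whose libraries did not overlap and whose average log2 CPM reached 1, up to 4 members of smallest p and all called members of each of 26 gene lists, the AP-1 genes and those the study names, and the 3 called genes with the largest FPKM difference in each direction. Exceptions are given as such, and a few genes that meet the rule are not reported here. The comparison and the lists were chosen with earlier results of these data known. Of 25369 gene symbols, 21538 matched the reference tables directly and 1455 by an older symbol. Gene positions are GRCh37 and promoters are RefSeq's on GRCh38.p14. The study describes its replicates as independent experiments, and p-values rest only on the spread between these libraries, estimated largely across genes. The correlation of same-numbered deviations across genes was -0.0358 at 2 days and -0.49 at 4 days. With 2 libraries per matrix, it cannot decide whether libraries of the same number came from the same experiment.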

Additional observations from a re-analysis of the deposited data

Results flagged for a closer look

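SMAD7 and AKR1C1 had both stiff libraries above both soft ones at 2 days and both below at 4 days, and for that reason stand apart from the other named genes. For SMAD7, the inhibitory SMAD, the log2 fold change was 0.41 at 2 days and -0.51 at 4 days, a change of -0.924 (adjusted p of the interaction = 1 by edgeR with 8 libraries). For AKR1C1, an aldo-keto reductase, it was 0.29 and -0.78, a change of -1.08 (adjusted p = 1). The difference between the days therefore did not pass a test in either gene, and these 2 were among 171 named genes compared.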

How the results depend on the processing

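The direction of each called named gene was the same under each alternative that could be fitted, while the number of calls was not. Genes called higher and lower numbered 314 and 353 in the fit of the 4 libraries, 0 and 0 with 8 libraries in a single edgeR fit, 6 and 22 with DESeq2 on 8 libraries, 222 and 155 with DESeq2 on 4, and 63 and 124 with the voom fit. They numbered 174 and 554 without scaling factors, 2 and 0 with all genes above 1 count, 1144 and 671 with length and GC offsets, and 13 and 47, or 27 and 100 at an unadjusted p, when a 2-fold change was also asked for. On log2(FPKM + 1) limma called 9 and 28, without a filter 43 and 24, and on log2(FPKM + 0.1) 0 and 0, with 874 and 864 at an unadjusted p under 0.05. Leaving out each library in turn gave 21 to 1033 higher and 43 to 1167 lower. The lone library of a matrix is then assumed to vary like the other pair. RLE factors and a minimum of 10 counts kept both counts within 1.5 times. The causes of these differences were not tested. A replicate block in the fit left 180 called higher and 249 lower, 422 of them among the 667. Whether the replicate numbers pair these libraries is not known. The test between the days gave 0 calls, 3 by DESeq2, and 0 to 3139 with each library left out.

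Of the 171 named called genes, 34 were called in each of the 4 fits that left out a library, among them HAS2, CXCL8, CXCL1, CCL2, ISG15, OASL, MMP9, MMP2, FLNC and CCND1. PMEPA1 was called in 0. Without stiff replicate 1, 135 lost their call, and without stiff replicate 2, 71 did. Among the 667 called genes, 4 turned direction without stiff replicate 2, all of them genes of short RNAs. With 2 libraries per matrix, each call rests on a spread estimated largely across genes.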

Other observations

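Complement genes beside C3, chosen after their values were seen, were lower on the stiff matrix at 2 days. CFB, the protease of the alternative pathway, measured 12.3 and 12.9 CPM on the soft and 4.32 and 8.08 CPM on the stiff matrix (log2 fold change -1.02, SE 0.16, edgeR adjusted p = 3.66e-05). C1R and C1S, the proteases of the classical pathway, had log2 fold changes of -0.72 (SE 0.11) and -0.78 (SE 0.16) and were called as well. The membrane regulators CD55, CD59 and CD46 were not called, with log2 fold changes of 0.31, 0.04 and -0.11.

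HES1 and HES4, repressors that Notch signals induce, were also named after their values were seen. HES1 measured 7.86 and 7.62 CPM on the soft and 2.81 and 3.65 CPM on the stiff matrix (log2 fold change -1.26, SE 0.18, edgeR adjusted p = 4.03e-06), and HES4 had a log2 fold change of -0.61 (SE 0.11).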
